A study of Mus musculus with 2 samples.

Results

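Cycling cells, those in DNA replication or division when they were captured, were picked out here by 5 genes. A cell barcode was counted as cycling when its UMIs (unique molecular identifiers, each standing for 1 captured transcript) of Mki67, Top2a, Cenpf, Ube2c and Birc5 summed to at least 4, with at least 2 of the 5 genes detected. Only barcodes with 500 or more UMIs, 300 or more genes and a mitochondrial share of UMIs below 20% were considered. The rule found 227 cycling barcodes among 12830 that passed these limits, of 13969 deposited. There were 29 in the control library and 198 in the cirrhosis library. The 5 genes chose the barcodes, so their levels are given as a description and support nothing.

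The libraries came from livers of C57BL/6 mice aged 16 weeks with the genotype Cdh5-Cre+, mTmG +/+. In these mice a recombinase driven by the promoter of Cdh5, the vascular endothelial cadherin gene, switches a membrane reporter from tdTomato to eGFP, so the eGFP marks cells in which that promoter has been active at any time. The control group is labelled only as control, and the cirrhosis group had breathed vaporized carbon tetrachloride (CCl4), a hepatocyte toxin, for 12 weeks. Each group was 1 library of live GFP-positive non-parenchymal cells pooled from 3 mice, made with a droplet 3' kit, so no difference between groups has a replicate check. Every interval below is a 95% interval that covers counting error only.

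A cell that divides first licenses its replication origins with the MCM helicase, then copies its DNA with enzymes that make and join nucleotides, and then builds a spindle that parts the chromosomes under the control of cyclin-dependent kinase 1. Genes of replication are transcribed earlier in the cycle than genes of the spindle, and many of the latter are degraded as proteins once division ends. In the healthy adult liver sinusoidal endothelial cells and Kupffer cells, the resident macrophages, divide rarely, and both can divide after injury.

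Each barcode was placed in a lineage by the largest of 5 marker sums, so a lineage name here stands for that sum alone. The sums were Stab2, Clec4g and Kdr for endothelial cells, C1qa, C1qb and C1qc for macrophages, Cd3e, Cd3d and Cd3g for T cells, Cd79a and Cd79b for B cells, and Epcam and Krt19 for biliary cells. A barcode with equal sums was called tied, and one with none of these UMIs was kept apart as having no marker. The median depth was 7050.5 UMIs in the 5168 control barcodes and 9084 UMIs in the 7662 cirrhosis barcodes. Of the barcode sequences, 17 were present in both libraries, and 0 of them were cycling in either library. Although the sort was for GFP, macrophages made up 6.46% of control and 13.2% of cirrhosis barcodes, and T cells 4.14% and 2.43%.

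The 5 genes act late in the cycle. Mki67 encodes the Ki-67 coat protein of mitotic chromosomes, Top2a the topoisomerase that untangles copied DNA, Cenpf a kinetochore protein, Ube2c the ubiquitin-conjugating enzyme that works with the anaphase-promoting complex, and Birc5 survivin, a subunit of the chromosomal passenger complex. Promoters of such genes commonly hold a cell cycle homology element (CHR), whose letters are TTTGAA, a variant of it that reads TTTAAA, and boxes with the letters CCAAT, through which the DREAM and MuvB complexes and NF-Y act. The 250 bases before each start site are printed here because these genes define the cycling barcodes, with matches on either strand to the element, its variant and the CCAAT box in capitals (5′ to 3′ on the gene's strand, RefSeq starts on GRCm38.p6). The windows lie at chr7:135716380-135716629 (minus strand), chr11:99024190-99024439 (minus strand), chr1:189688087-189688336 (minus strand), chr2:164769679-164769928 (plus strand) and chr11:117848987-117849236 (plus strand).
Mki67: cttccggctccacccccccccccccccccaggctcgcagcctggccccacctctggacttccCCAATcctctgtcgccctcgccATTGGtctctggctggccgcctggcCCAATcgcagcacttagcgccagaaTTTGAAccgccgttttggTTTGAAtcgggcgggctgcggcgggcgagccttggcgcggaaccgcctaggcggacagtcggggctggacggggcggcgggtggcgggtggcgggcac
Top2a: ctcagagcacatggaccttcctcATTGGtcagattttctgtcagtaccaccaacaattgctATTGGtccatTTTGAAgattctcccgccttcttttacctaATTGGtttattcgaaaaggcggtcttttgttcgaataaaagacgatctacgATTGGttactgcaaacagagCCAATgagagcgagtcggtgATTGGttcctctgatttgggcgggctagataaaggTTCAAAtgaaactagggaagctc
Cenpf: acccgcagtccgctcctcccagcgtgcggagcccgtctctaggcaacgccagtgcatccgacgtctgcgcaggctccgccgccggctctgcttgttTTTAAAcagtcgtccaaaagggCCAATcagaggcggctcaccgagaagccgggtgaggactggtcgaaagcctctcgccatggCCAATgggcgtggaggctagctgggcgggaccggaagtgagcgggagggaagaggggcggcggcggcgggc
Ube2c: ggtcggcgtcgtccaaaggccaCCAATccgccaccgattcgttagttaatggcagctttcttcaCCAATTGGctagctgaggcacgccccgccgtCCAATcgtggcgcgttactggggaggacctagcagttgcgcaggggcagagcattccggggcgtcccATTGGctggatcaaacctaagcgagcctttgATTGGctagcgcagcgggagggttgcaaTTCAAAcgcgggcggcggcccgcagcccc
Birc5: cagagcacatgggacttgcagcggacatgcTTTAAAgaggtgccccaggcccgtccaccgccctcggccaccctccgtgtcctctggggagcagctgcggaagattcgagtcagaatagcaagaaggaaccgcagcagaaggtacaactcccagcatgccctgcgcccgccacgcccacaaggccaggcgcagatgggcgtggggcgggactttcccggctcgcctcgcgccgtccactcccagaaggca
TTTGAA was found in the windows of Mki67, Top2a and Ube2c, and TTTAAA, which reads the same on both strands, in those of Cenpf and Birc5. The Top2a window held 6 CCAAT matches and the Ube2c window 6, of which 1 pair overlapped by 2 bases, while the Birc5 window held none in these letters. Of all 32851 RefSeq promoter windows of this length, 16.0% held the element TTTGAA, 12.1% held the variant and 33.8% held a CCAAT box.

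The same letters were counted in promoters of other cell-cycle genes by their place in the cycle. RefSeq windows matched 24 of 28 genes for mitotic kinases, spindle and cytokinesis, 14 of 20 cyclins and regulators and 19 of 22 DNA synthesis genes, some with several starts. TTTGAA was in 10 of 27 windows (37.0%) of the mitotic genes and in 6 of 14 windows (42.9%) of cyclins and regulators of S and M phase. It was in 2 of 25 windows (8.0%) of DNA synthesis genes. CCAAT was in 18 of 27 (66.7%), 11 of 14 (78.6%) and 13 of 25 (52.0%) of these windows. Other lists kept this order in part. TTTGAA was in 7 of 13 windows (53.8%) of condensin, cohesin and separase genes and in 4 of 10 (40%) of chromatin, histone and tubulin genes. It was in 0 of 10 DNA repair windows. TTTGAA was in 4 of 23 kinetochore windows (17.4%) and 2 of 12 licensing windows (16.7%), near the share of all windows, and CCAAT was in 10 of 12 licensing windows (83.3%). The E2F motif GGCGGGAA, tied to genes of S phase, was in 3 of 25 DNA synthesis windows (12.0%) and 1 of 13 condensin and cohesin windows (7.69%). It was in 0 of 12 licensing, 0 of 10 DNA repair and 0 of 27 mitotic windows, and in 1.86% of all windows. These are matches of letters, and no factor was measured.

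In the 29 control members Mki67 reached 552 CPM (a gene's UMIs relative to all UMIs of the pooled barcodes, on a scale where 10000 CPM is 1%), Top2a 628, Cenpf 346, Ube2c 649 and Birc5 389. In the 198 cirrhosis members the levels were 213, 278, 153, 279 and 219 CPM. All 5 genes were therefore lower per UMI in the cirrhosis members. Top2a had a UMI in 93.1% of control and 60.1% of cirrhosis members, and Mki67 in 82.8% and 56.1%. Cenpf had one in 65.5% and 40.9%. Birc5, in 75.9% and 83.8%, and Ube2c, in 79.3% and 80.3%, were not found less often in cirrhosis members.

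The members differed in how far past the rule they lay. The sum of the 5 genes had a median of 12 UMIs in control members and 7 in cirrhosis members. In control, 3 barcodes had a sum of 3, just under the rule, and 3 members a sum of 4. In cirrhosis these were 68 barcodes and 40 members, so a larger part of the cirrhosis members stood at the threshold. Sums of 20 or more were found in 12 of 29 control and 37 of 198 cirrhosis members. A further 1 control and 11 cirrhosis barcodes had at least 4 UMIs, all from 1 gene, and were not members.

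Birc5 and Ube2c were also the genes most often found outside the members of the cirrhosis library. Among barcodes that did not meet the rule, Birc5 stood at 0.398 CPM in control and 5.83 CPM in cirrhosis, and Ube2c at 0.984 and 4.11 CPM. The cirrhosis level of Birc5 was uneven, from 1.56 CPM in T cells to 28.6 in tied barcodes and 34.6 in those with no marker. In endothelial barcodes it was 4.10 CPM, against 0.301 CPM in control. Cenpf stood at 0.539 and 0.941 CPM in all barcodes that did not meet the rule. In cirrhosis 320 of 7464 such barcodes (4.29%) had a Birc5 UMI, against 16 of 5139 (0.311%) in control. Birc5 and Ube2c alone, with no UMI of the other 3 genes, made 25 of the 198 cirrhosis members and 0 of the 29 control members.

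To see whether members carried the rest of the cell-cycle programme, 136 other cell-cycle genes were summed. Genes of G1 and those of chromatin, histones and tubulin were left out. The 136 covered origin licensing, DNA synthesis and repair, cyclins and regulators, kinetochore, mitosis, condensin and cohesin. These genes took no part in the choice of members, though they share its barcodes. In the control members they made up 13753.5 CPM, against 1669.6 CPM in the other 5139 barcodes. In the cirrhosis members they made up 6614 CPM, against 1570.8 CPM in the other 7464. The level moved with the sum of the 5 genes. In cirrhosis members with sums of 4 to 7, 8 to 19, and 20 or more it was 2811, 5049 and 13688 CPM. In control members of the same classes it was 3895, 11880.2 and 19951 CPM. Just under the threshold the cirrhosis barcodes with a sum of 3 stood at 2158 CPM, and members with a sum of 4 at 2262 CPM.

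**Figure D1:**
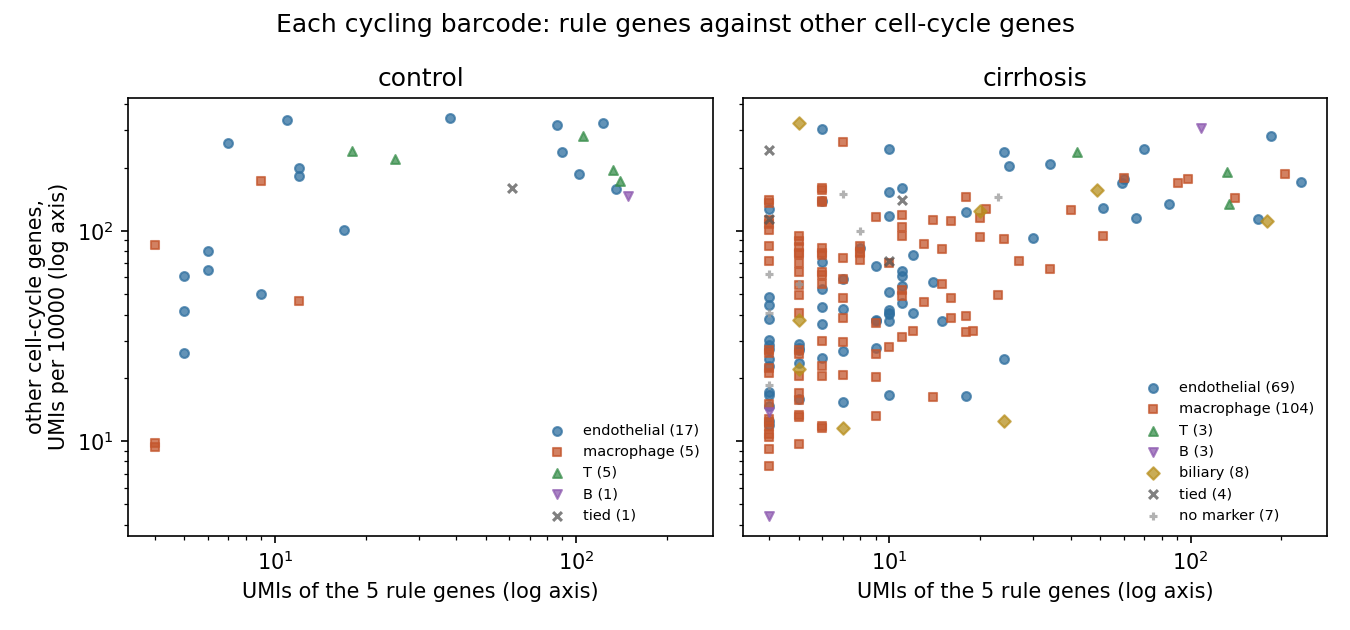
Each point is 1 cycling barcode, with the UMIs of the 5 rule genes on the x axis and the UMIs of 136 other cell-cycle genes per 10000 UMIs on the y axis, both on log axes, control left and cirrhosis right. Points with high sums lie high on the y axis in both panels, and many cirrhosis points with sums of 4 to 7 lie low, where the pooled level was 2811 CPM.

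The members were then set against barcodes of the same library and lineage without a single UMI of the 5 genes. In control, 16 of 17 endothelial members exceeded the 99th percentile of those barcodes (34.1 cell-cycle UMIs per 10000). In cirrhosis, 47 of 69 endothelial members exceeded it (35.6 per 10000), made of 12 of 30 with sums of 4 to 7, 22 of 25 with sums of 8 to 19 and 13 of 14 with sums of 20 or more. All 5 control and all 3 cirrhosis T cell members were above theirs (57.0 and 48.0 per 10000). Among cirrhosis macrophage members 23 of 104 were above a percentile that was itself higher, 102 per 10000. These were 9 of 59 with sums of 4 to 7, 6 of 31 with sums of 8 to 19 and 8 of 14 with sums of 20 or more. In control 2 of 5 macrophage members were above 49.6 per 10000. By genes the rule did not use, the label of cycling cells held for nearly all control endothelial and all T cell members. It held for most cirrhosis endothelial members with sums of 8 or more. By this limit, the highest of those used, it held for 23 of 104 cirrhosis macrophage members, and for 8 of the 14 with sums of 20 or more. The limits differ by lineage, so these counts do not rank the lineages. In cirrhosis the median level was 60.3 per 10000 in macrophage members, against 11.6 in macrophages without a UMI of the 5 genes. For endothelial barcodes these medians were 44.3 and 15.1.

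In control 29 of 5168 barcodes were cycling, a share of 0.561% with a Clopper-Pearson interval from 0.376% to 0.805%. In cirrhosis 198 of 7662 were, a share of 2.58% (2.24% to 2.96%). The share was 4.61 times as high in cirrhosis (exact conditional interval 3.11 to 7.06). Macrophages held 104 of the 198 cirrhosis members (52.5%) and 5 of the 29 control members (17.2%). Endothelial barcodes held 69 (34.8%) and 17 (58.6%). Many macrophage members also reached limits set for transcripts of other cells. These were 1% hepatocyte, plasma cell or NK UMIs, 3 UMIs of Flt3, Xcr1, Clec9a, Cd209a and Itgax together, or 2 UMIs in more than 1 marker sum. They were reached by 68 of 104 cirrhosis members (65.4%) and 4 of 5 control members, against 60.4% and 63.5% of the other macrophages. In cirrhosis 9 of the 104 rested on at most 2 C1q UMIs, and 6 of these 9 reached the limits. The 9 held up to 713 UMIs of the hepatocyte list or 1392 of the dendritic list, which includes Cd74 and class II genes. Whether dendritic list UMIs in macrophage barcodes came from another cell was not tested.

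Macrophages had the largest share of cycling barcodes among the named lineages of the cirrhosis library, though its interval overlapped that of the biliary barcodes. The share was 1.5% in control (5 of 334, 0.488% to 3.46%) and 10.3% in cirrhosis (104 of 1009, 8.5% to 12.4%). The ratio of cirrhosis to control was 6.89 (2.86 to 21.6). Within the cirrhosis library the share in macrophages was 7.98 times (5.83 to 11) that in endothelial barcodes, and within the control library 3.78 times (1.09 to 10.7). With a UMI of Mki67 or Top2a required, the cirrhosis shares were 8.23% of macrophages (83 of 1009) and 1.05% of endothelial barcodes (56 of 5342).

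Endothelial barcodes were cycling in 0.396% of control (17 of 4295, 0.231% to 0.633%) and 1.29% of cirrhosis (69 of 5342, 1.01% to 1.63%). The ratio was 3.26 (1.90 to 5.92). For T cells the counts were 5 of 214 in control (2.34%, 0.763% to 5.37%) and 3 of 186 in cirrhosis (1.61%, 0.334% to 4.64%). The T cell ratio was 0.69, with an interval from 0.107 to 3.55 that includes both directions. B cells had 1 of 60 in control (1.67%, 0.0422% to 8.94%) and 3 of 136 in cirrhosis (2.21%, 0.457% to 6.31%). Biliary barcodes had 0 of 47 in control, where a count of 0 allows up to 6.38% (3 counts of 47; Clopper-Pearson limit 7.55%), and 8 of 115 in cirrhosis (6.96%, 3.05% to 13.2%). Among barcodes without any lineage marker, 0 of 192 in control, which allows up to 1.56% by 3 counts (Clopper-Pearson limit 1.90%), and 7 of 768 in cirrhosis (0.911%, 0.367% to 1.87%) were cycling. Of tied barcodes, 1 of 26 and 4 of 106 were.

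**Figure D2:**
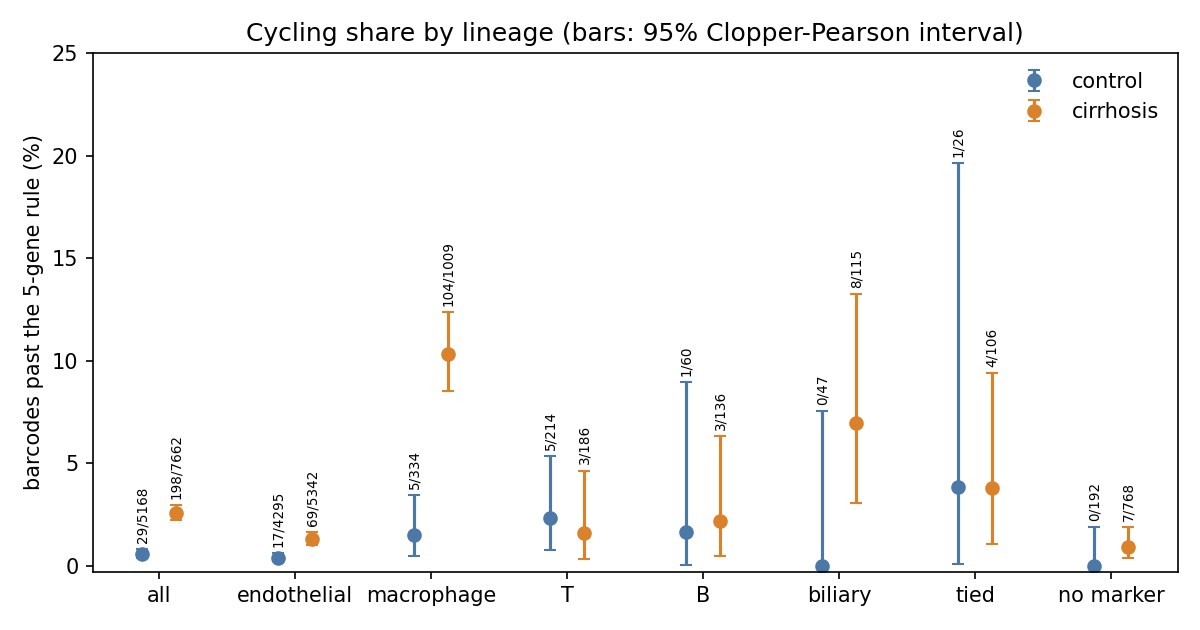
The share of barcodes that met the rule (y axis, percent) is shown for all barcodes and each lineage in the control and cirrhosis libraries, with 95% Clopper-Pearson bars and the counts above them. The cirrhosis macrophages at 10.3% stand apart from the control macrophages at 1.5%, and the intervals of the T cells overlap.

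Depth differed between members and other barcodes and between the libraries. Endothelial members had a median of 11784 UMIs in control and 16736 in cirrhosis, against 7279.5 and 10228 in the other endothelial barcodes. Cirrhosis macrophage members had 7336 against 4860. To compare shares at 1 depth, each barcode was thinned to a fixed number of UMIs and shallower ones were left out. At 5000 UMIs the endothelial share was 0.304% in control (10 of 3294) and 0.552% in cirrhosis (25 of 4527), a ratio of 1.82 (0.844 to 4.24). At 2000 UMIs it was 0.248% (10 of 4036) and 0.295% (15 of 5086), a ratio of 1.19 (0.500 to 2.96). Both intervals include 1, so no difference was detectable at either depth. The thinned macrophage share was 0.602% (1 of 166) and 5.66% (29 of 512) for 5000 UMIs, and 0 of 239 (Clopper-Pearson limit 1.53%) and 3.48% (26 of 748) for 2000 UMIs.

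Transcripts of other cells also moved with the endothelial members of the cirrhosis library. The hepatocyte list of 10 genes (Alb, Apoa1 and others) had at least 1% of UMIs in 31 of 69 of them (44.9%), against 14.1% of the other cirrhosis endothelial barcodes. In control these were 0 of 17 and 6.87%. Summed over the list, the 69 members ranged from 0 to 120328 CPM with a median of 6038, with 0 of the 10 genes at 0. The 17 control members ranged from 0 to 5241 CPM with a median of 296, and Hnf4a was at 0. The macrophage list of 13 genes stood at 1737 CPM in the cirrhosis members (median 254 CPM, highest 28740.4, Cd163 at 0) and 903 CPM in the control members (median 602 CPM, highest 2861, Cd163, Marco and Timd4 at 0). At least 2 UMIs in more than 1 of the 5 marker sums were found in 44 of 69 cirrhosis members and 3 of 17 control members, against 41.6% and 16.1% of the other endothelial barcodes. The highest doublet scores against simulated doublets took in 16 of 198 cirrhosis and 1 of 29 control members. Over all barcodes they took in 470 of 7662 in cirrhosis and 214 of 5168 in control.

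When barcodes rich in hepatocyte, plasma cell, NK or dendritic transcripts and those with markers of more than 1 lineage were left out, no endothelial difference was detectable. The share was then 0.398% in control (13 of 3263, 0.212% to 0.680%) and 0.321% in cirrhosis (8 of 2496, 0.138% to 0.631%). The ratio was 0.80, with an interval from 0.289 to 2.09 that includes both directions. Leaving out only the hepatocyte-rich barcodes gave 0.425% and 0.832%, a ratio of 1.96 (1.08 to 3.70). Both sets were defined after the counts had been seen. The full set of limits took out 24.0% of the other endothelial barcodes in control and 52.8% in cirrhosis. Limits set as UMI counts are met more easily by deep barcodes. Endothelial members taken out had medians of 27611.5 UMIs in control and 17453 in cirrhosis, against 10568 and 12947.5 in those kept. For cirrhosis macrophage members these were 20243.5 and 4325. With all other types left out the macrophage share was 0.826% in control (1 of 121) and 9.14% in cirrhosis (36 of 394), a ratio of 11.1 (1.86 to 449). That ratio rests on 1 control barcode. The part of these transcripts, or of depth, in the endothelial difference was not tested.

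**Figure D3:**
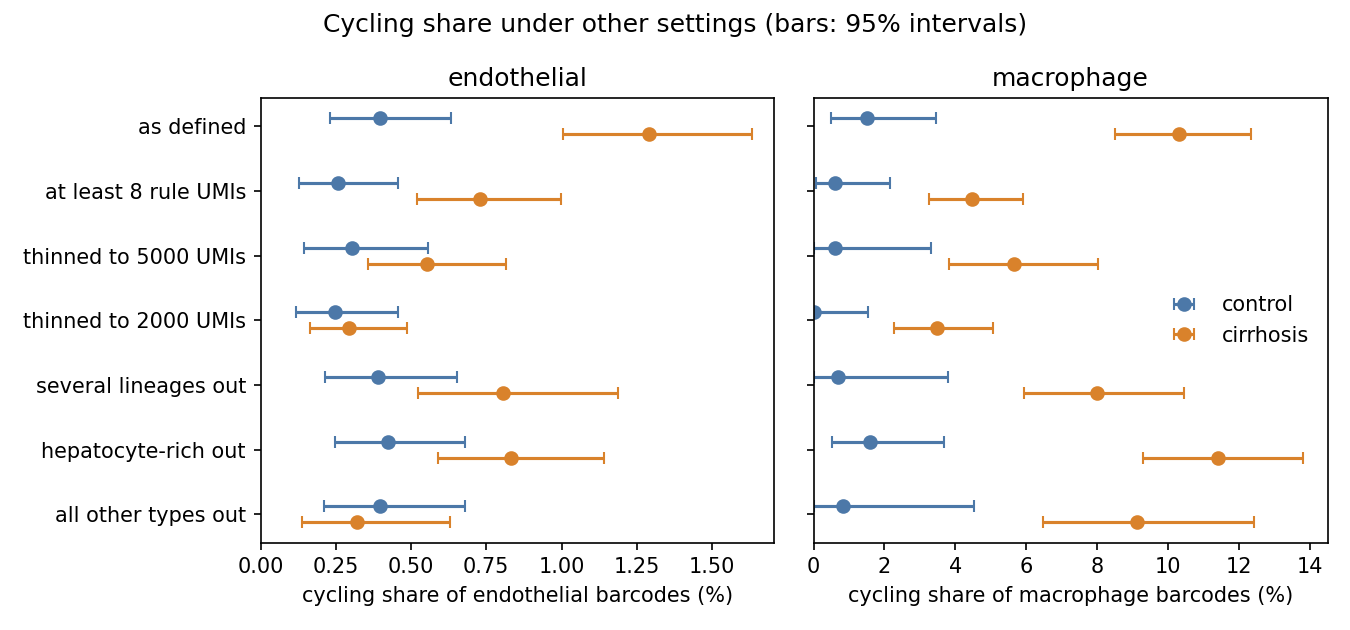
The cycling share (x axis, percent) of endothelial barcodes, left, and macrophages, right, is drawn for control and cirrhosis under the rule as defined and other settings, with 95% Clopper-Pearson bars. The endothelial points of both libraries meet at 2000 UMIs (0.248% and 0.295%) and with barcodes of other cell types left out (0.398% and 0.321%), and the macrophage points do not meet.

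Of the 17 control endothelial members, 13 passed the limits on other cell types, with 34 to 573 other cell-cycle UMIs and 2029 to 26594 total UMIs. The deepest of the 13 still held 169 UMIs of the dendritic list, 43 of the B cell list and 20 of the monocyte list. Of the other 4, 1 went against its name. It held 450 UMIs of the NK list (Gzma, Prf1, Nkg7 and others) and 4 of the endothelial sum, with a sum of 90 for the 5 rule genes. Another held 28 Cd3 UMIs beside 67 endothelial ones. All 17 had at least 1 eGFP UMI.

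In the cirrhosis library 8 of 69 endothelial members passed these limits. They had 37 to 678 other cell-cycle UMIs, and their pooled level of 16876 CPM was close to the 14835 CPM of the 13 such control members. The 61 other members stood at 6292 CPM. Of the 8, 1 had 280 UMIs of the monocyte list, 481 of the macrophage list and 1 of the endothelial sum, and so went against its name as well. Some of the 61 did too. Barcodes with 1 UMI of the endothelial sum held 2227 or 1094 hepatocyte UMIs or 632 dendritic UMIs. Another with 2 held 814 dendritic UMIs. The deepest of the 8, with 23915 UMIs, had 41 Cenpf, 57 Ube2c and 143 UMIs of 13 further endothelial genes.

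T cell members were few and had high sums. The sum of the 5 rule genes was 18, 25, 105, 132 and 140 UMIs in the 5 control barcodes and 42, 132 and 134 in the 3 cirrhosis ones. Trac and Trbc2, constant regions of the T cell receptor, had UMIs in all 5 and all 3. The control members had no Cd8a or Cd8b1 UMI and 2 Cd4 UMIs, while 2 of the 3 cirrhosis members held 32 Cd8a and 75 Cd8b1 UMIs together. Gzmb, a granzyme of cytotoxic cells, was at 123 CPM in the control members, below the 799.7 CPM of other control T cells, and at 1701 CPM in the cirrhosis members, above the 143 CPM of other cirrhosis T cells. Foxp3, the factor of regulatory T cells, had 9 UMIs, all in 1 cirrhosis member. With 5 and 3 barcodes no pattern of T cell kinds can be read.

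The B cell members were 4 unlike barcodes. The control one carried 915 plasma cell UMIs, among them 713 of Jchain, and a rule sum of 149. In cirrhosis 1 had a rule sum of 108 with 29 Vpreb1, 27 Igll1 and 7 Rag1 UMIs, genes of B cell precursors that rearrange their receptors. The other two had rule sums of 4, with 4200 plasma cell UMIs in 1 of them and 921 dendritic UMIs beside 911 hepatocyte UMIs in the other. So 2 of the 4 had high sums and many other cell-cycle UMIs, 582 and 473, and the other two had 23 and 34.

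The 8 biliary members of the cirrhosis library were mixed. Epcam had a UMI in all 8 and Krt19, a keratin of bile ducts, in 6. In 3 of them the dendritic list (Flt3, Xcr1, Cd74, class II genes and others) reached 840, 1078 and 1480 UMIs, and 1 of these had 1 biliary UMI only. Another had 765 hepatocyte UMIs and 1 biliary UMI. The remaining 4 held 15 to 62 biliary UMIs and 41 to 624 UMIs of 10 further duct genes, with rule sums of 5, 5, 5 and 24. Of these, 1 also held 612 hepatocyte UMIs, and another 32 C1q and 131 mesenchymal UMIs. The one with a sum of 24 held 39 UMIs of the endothelial sum. Of its rule UMIs 22 were Cenpf, and it had 36 other cell-cycle UMIs among 28836. Only 1 of the 8, with 1506 total UMIs, passed the limits on other cell types. The 7 members without any lineage marker included 5 with 99 to 751 hepatocyte UMIs and 1 with 627 dendritic UMIs. The tied member of control and the deepest tied one of cirrhosis held 775 and 1037 dendritic UMIs.

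The reporter separated the members by lineage. The row for eGFP stood at 1082 CPM in control and 847 CPM in cirrhosis endothelial members, and had a UMI in 100% and 89.9% of them. In macrophage members it stood at 47.2 and 144 CPM, with a UMI in 40% and 30.8%. Other macrophages had 319 and 344 CPM, and other endothelial barcodes 1586 and 1413 CPM. Members thus lay below the other barcodes of their lineage in each of these 4 sets. In T cell members eGFP was at 28.4 and 136 CPM. The tdTomato row, expressed before recombination, was at 27.3 and 38.3 CPM in endothelial members and 13.7 and 7.93 CPM in the other endothelial barcodes.

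Members differed in their balance of replication and mitotic transcripts, and their position in the cycle was not tested. Levels of 37 genes of origin licensing and DNA synthesis and 50 genes of the kinetochore and mitosis were compared per barcode. Mitotic genes were above replication genes in 17 of 29 control members and 138 of 198 cirrhosis members. In the other barcodes the order was reversed, with mitotic genes above in 758 of 5139 control and 1564 of 7464 cirrhosis barcodes. The 5 rule genes are late genes, and barcodes in early replication with fewer than 4 of their UMIs are not counted. Among control endothelial members with sums of 20 or more mitotic genes were higher in 6 of 6, at 11722 CPM against 3073 CPM. Among those with sums of 4 to 7 they were higher in 2 of 6, at 1424 against 2263 CPM. In cirrhosis macrophage members mitotic genes were higher in 75 of 104, with medians of 22.4 UMIs per 10000 for them and 7.63 for replication genes.

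**Figure D4:**
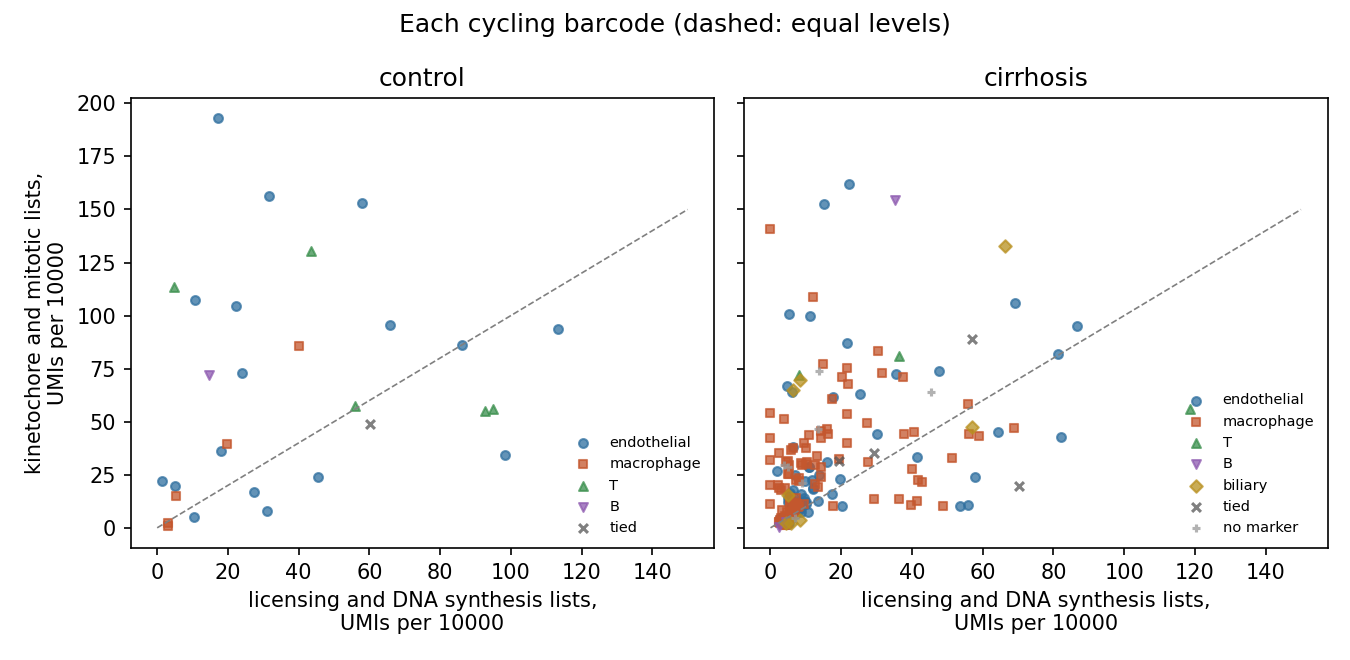
Each point is 1 cycling barcode, with UMIs of the licensing and DNA synthesis lists per 10000 on the x axis and those of the kinetochore and mitotic lists on the y axis, control left and cirrhosis right, and a dashed line of equal levels. Points lie above the line in 17 of 29 control and 138 of 198 cirrhosis members.

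Cycling endothelial barcodes were then compared with the other endothelial barcodes of the same library, gene by gene. Of 7303 genes at a mean of 20 CPM in control, 708 (9.69%) were at least 2-fold higher and 487 (6.67%) at least 2-fold lower in the 17 members. Of 7261 genes in cirrhosis, 601 (8.28%) were at least 2-fold higher and 122 (1.68%) lower in the 69 members. The median log2 ratio over all genes was -0.01 and -0.09. Genes silent outside division reach 20 CPM only through the members, so counts over such lists describe the members and do not test them. A gene with no UMI on 1 side was set to a floor of 3 UMIs there, which makes its ratio a bound.

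Genes that license origins, which act first in the cycle, are given first. Of 15, 10 were measured in control and all 10 were at least 2-fold higher, with a median log2 ratio of 2.78. In cirrhosis 5 of 7 were, with a median of 1.82. Mcm5, a subunit of the MCM helicase, was at 117 CPM in members and 9.61 CPM in others of control, and at 69.1 and 6.85 CPM in cirrhosis. Gmnn, whose product geminin blocks a second licensing, was at 89.6 and 11.9 CPM in control and 55.9 and 8.12 CPM in cirrhosis. Orc6, of the origin recognition complex, differed least, with log2 ratios of 1.03 and 0.21.

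Of the 22 DNA synthesis genes, 20 of 21 measured were at least 2-fold higher in control (median 2.83) and 12 of 14 in cirrhosis (median 1.73). Tyms, which makes thymidylate, was at 171 against 8.89 CPM in control, a log2 ratio of 4.27 (95% interval 3.78 to 4.73), and at 74.3 against 9.15 CPM in cirrhosis, a log2 ratio of 3.02 (95% interval 2.70 to 3.33). Rrm1, a subunit of ribonucleotide reductase, had log2 ratios of 2.55 in control and 1.61 in cirrhosis. Pcna, the sliding clamp of the replication fork, was at 210.3 against 62.8 CPM in control and 77.2 against 32.7 CPM in cirrhosis. Slbp, which binds histone transcripts, was under 2-fold higher in both.

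Cyclins and regulators of S and M phase stood further apart. All 13 measured were at least 2-fold higher in control (median 5.74), and 7 of 8 in cirrhosis (median 4.70). Cdk1, the kinase that starts mitosis, was at 308 CPM in control members and 5.45 CPM in others, a log2 ratio of 5.82 (95% interval 5.42 to 6.20). In cirrhosis it was at 118 and 11.8 CPM, a log2 ratio of 3.31 (95% interval 3.06 to 3.56). Its cyclin partner Ccnb2 was at 214 and 0.876 CPM in control and 117 and 3.46 CPM in cirrhosis. Cyclin A2, Ccna2, which serves both S phase and mitosis, had a UMI in 13 of 17 control members and 43 of 69 cirrhosis members. Cdc20, an activator of the anaphase-promoting complex, was at 199 and 116 CPM in the members and 1.31 and 2.48 CPM in the others.

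Genes of mitotic kinases, spindle and cytokinesis had the highest median of the cell-cycle lists in both libraries, and kinetochore genes came next in control but below the cyclins in cirrhosis. All 19 kinetochore genes measured in control (median 6.80) and 10 of 11 in cirrhosis (median 3.77) were at least 2-fold higher. All 28 genes of mitotic kinases, spindle and cytokinesis in control (median 7.37) and all 23 measured in cirrhosis (median 5.71) were. Summed, the mitotic list stood at 3929 CPM in control members and 1602 CPM in cirrhosis members, against 58.1 and 63.9 CPM in the others. Prc1, which bundles the microtubules of the midzone, was at 343 and 117 CPM in the members and had a UMI in 11 of 17 and 29 of 69 of them. Tpx2, an activator of Aurora A kinase, was at 116 against 1.75 CPM in cirrhosis. Cenpe, a kinetochore motor, was at 140.2 and 87.5 CPM in the members. Bub3, a checkpoint protein with other uses, differed least of the kinetochore genes, with log2 ratios of 1.29 and 0.55.

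Of the condensin and cohesin genes 11 of 14 in control and 6 of 11 in cirrhosis were at least 2-fold higher. The condensin core subunit Smc4 was at 498 against 47.1 CPM in control and 196 against 50.2 CPM in cirrhosis. Pttg1, which encodes securin, was not higher, at 62.3 against 80.5 CPM and 59.6 against 60.5 CPM. All 17 chromatin, histone and tubulin genes in control (median 3.73) and 12 of 15 in cirrhosis (median 1.88) were at least 2-fold higher. Hmgb2, a chromatin protein of dividing cells, was at 2138 against 105 CPM in control. Stmn1, the microtubule destabilizer stathmin, was at 1188 against 24.7 CPM in control and 577 against 62.6 CPM in cirrhosis. The replication histone Hist1h2ap, whose transcripts mostly lack the poly(A) tail that the kit primes on, was at 985 and 400.2 CPM in the members.

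Genes of G1 and cell-cycle inhibitors had small medians. Of 17 in control, 6 were at least 2-fold higher and 1 lower (median 0.70), and in cirrhosis 3 of 18 were higher (median 0.13). Ccnd1, the cyclin that answers growth signals, was at 234 against 290.1 CPM in control and 316 against 289 CPM in cirrhosis. Cdkn1a, which encodes the inhibitor p21, was at 288 against 184 CPM in control and 132 against 107 CPM in cirrhosis. Cdkn2c, an inhibitor of the CDK4 and CDK6 kinases, was higher in members of both, with log2 ratios of 3.68 (95% interval 3.25 to 4.08) and 1.86 (95% interval 1.58 to 2.13). So was Cdkn3, a phosphatase of CDK1 and CDK2, at 58.4 and 50.8 CPM in the members.

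Endothelial genes were lower per UMI in the cycling endothelial barcodes of both libraries, mostly by less than 2-fold. Of 12 identity genes of liver sinusoidal endothelial cells, 0 were at least 2-fold higher and 1 lower in each library, with medians of -0.69 and -0.80. Their sum was 11237 against 18802 CPM in control and 6398 against 11618 CPM in cirrhosis. Dnase1l3, a secreted nuclease, was at 1647 against 3169.9 CPM and 895 against 1640.2 CPM. Gata4, a factor that maintains the sinusoidal state, had log2 ratios of -0.29 and -0.72. Kdr, the main receptor for VEGF and a gene of the lineage sum, was at 1573 against 2609.6 CPM and 1018 against 1718 CPM.

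Transcripts of other cells differed in both libraries, those of hepatocytes in opposite directions. In the cirrhosis members all 10 hepatocyte genes were at least 2-fold higher than in other endothelial barcodes (median 1.62). So were 5 of 7 macrophage genes and 4 of 4 dendritic genes measured in that library. In control 0 of 9 hepatocyte genes were at least 2-fold higher and 7 were lower. Other lists were higher in control members too, with 4 of 4 NK, 5 of 5 T cell, 5 of 7 plasmacytoid dendritic, 3 of 4 dendritic and 2 of 2 monocyte genes measured at least 2-fold higher. The dendritic list stood at 2628 against 821 CPM. Gzma stood at 1511 CPM in 1 of 17 members, the barcode with 450 NK UMIs. The part of these transcripts in the ratios of other genes was not tested. In the sets that passed the limits on other cell types, 13 control and 8 cirrhosis barcodes, all 28 and all 27 mitotic genes measured were at least 2-fold higher, with medians of 7.55 and 7.98. Over all genes there 757 of 7191 (10.5%) and 1163 of 7137 (16.3%) were.

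**Figure D5:**
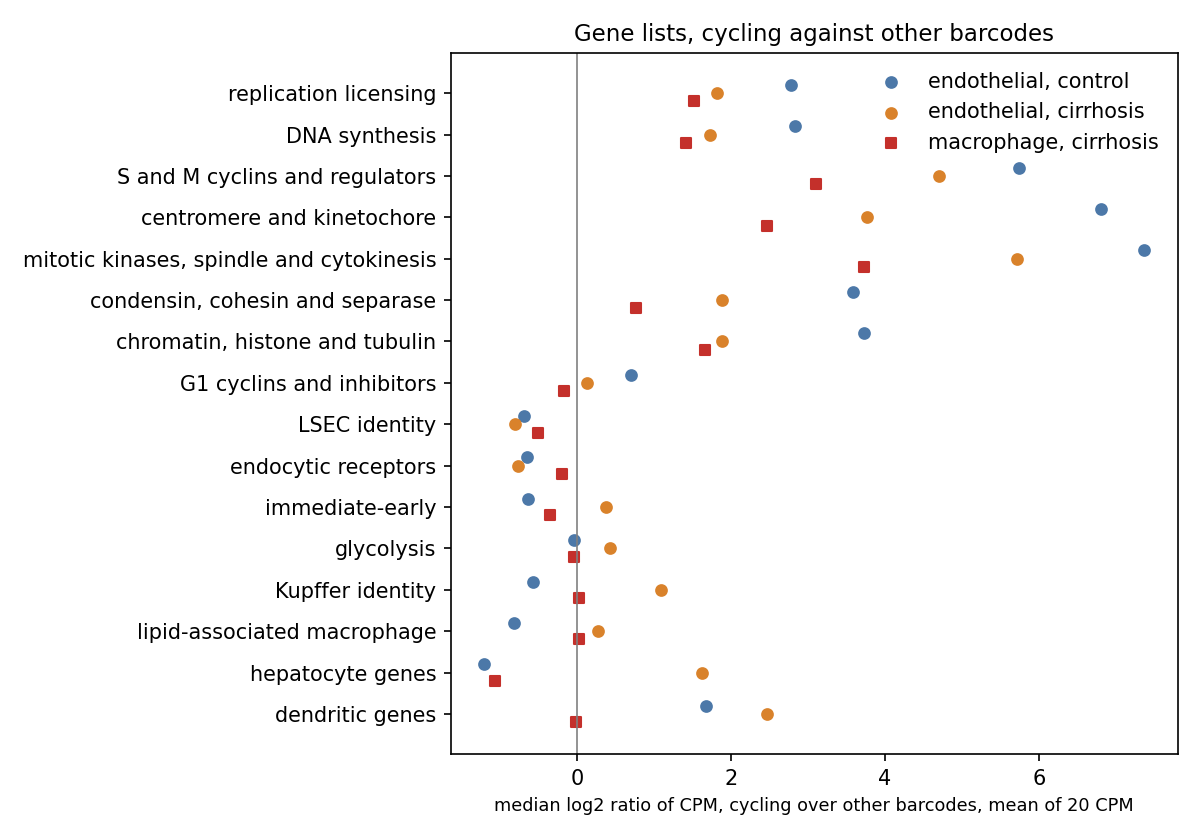
The median log2 ratio of CPM, cycling over other barcodes (x axis), is drawn for gene lists (y axis) in control endothelial, cirrhosis endothelial and cirrhosis macrophage barcodes, over genes at a mean of 20 CPM. The lists of replication, mitosis and chromatin lie right of 0 in all 3, up to 7.37 for the mitotic list in control, and the sinusoidal identity list lies left of 0.

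Cycling macrophages of the cirrhosis library were compared with the other macrophages in the same way. Of 6295 genes at a mean of 20 CPM, 112 (1.78%) were at least 2-fold higher and 170 (2.7%) at least 2-fold lower in the 104 members than in the 905 others. Without barcodes that reached the limits on other cell types, 36 members against 358 others, these were 449 (8.09%) and 351 (6.33%) of 5547 genes. The median log2 ratio of all genes was -0.04. Of Kupffer cell genes 0 of 10 passed 2-fold in either direction (median 0.03). Clec4f, a lectin found on Kupffer cells, was at 1009 against 988 CPM, and Cd5l, a secreted scavenger protein, at 1431 against 1209 CPM. Of 11 genes of lipid-associated macrophages 0 passed 2-fold (median 0.03). Trem2, a lipid receptor, was at 566 against 516 CPM, and Gpnmb, a glycoprotein of lipid-laden macrophages, at 450.5 against 297 CPM, a log2 ratio of 0.60 (95% interval 0.48 to 0.72).

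Their cell-cycle genes were higher, with smaller medians than in endothelial members. Licensing genes were at least 2-fold higher in 4 of 5 (median 1.52), DNA synthesis genes in 6 of 11 (median 1.42) and cyclins and regulators in 7 of 7 (median 3.10). All 15 mitotic genes measured were (median 3.73), and 15 of 16 chromatin, histone and tubulin genes were (median 1.67). Cdk1 was at 99.1 against 11.6 CPM, Ccna2 at 70.8 against 3.18 CPM and Mcm5 at 51.5 against 12.1 CPM. Cdkn1a was at 40.5 against 69.9 CPM. The mitotic list in the other macrophages stood at 106 CPM, above the 63.9 CPM of the other endothelial barcodes. Whether the ratios differ between the lineages was not tested.

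Some of the widest macrophage ratios came from single barcodes. Col3a1, Col1a1 and Col1a2, fibrillar collagens, had 97.1% to 97.8% of their member UMIs in 1 barcode. Igkc, Jchain and Igha, immunoglobulin genes, had 88.1% to 91.1% in 1 barcode. In contrast the barcode with most Birc5 UMIs held 30 of 379. Hepatocyte genes were lower in macrophage members, with 5 of 8 at least 2-fold lower and 0 higher (median -1.06). Endothelial transcripts were lower as well, 1653 against 2536 CPM for 13 genes, while the 13 macrophage genes stood at 15706 against 15828 CPM.

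Cycling endothelial barcodes of cirrhosis were compared with those of control over 3928 genes at a mean of 50 CPM. At least 2-fold higher in cirrhosis were 250 (6.36%), and at least 2-fold lower 327 (8.32%). Among the other endothelial barcodes of the same libraries 75 of 3881 (1.93%) were higher and 76 (1.96%) lower. The comparisons rest on 69 and 17 barcodes and on 5273 and 4278, so the first has the larger counting error.

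Continuous capillary genes, which sinusoids take on in fibrosis, were higher in cirrhosis both inside and outside the cycle. Of 13 measured in members 10 were at least 2-fold higher (median 2.20), and of 13 in the other endothelial barcodes 11 were (median 2.52). Ednrb, the endothelin B receptor, was at 19.5 CPM in control members and 793 CPM in cirrhosis members, and at 117 and 1662 CPM in the others. Ly6a, the Sca-1 antigen, was at 202 and 786 CPM in members and 291 and 1672 CPM in the others. Ednrb had a UMI in 60 of 69 cirrhosis members. The identity genes were lower in cirrhosis, with medians of -0.79 in members and -0.69 in the others. Oit3 was at 739.8 and 333 CPM in members.

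Immediate-early genes, which respond within minutes to stimuli, tissue dissociation among them, were lower in cirrhosis. In members 8 of 16 were at least 2-fold lower (median -0.97), and in the others 12 of 15 (median -1.69). Fos was at 1328 CPM in control and 459 CPM in cirrhosis members, and at 2203 and 323 CPM in the others. Of 10 glycolysis genes 3 were at least 2-fold higher in cirrhosis members (median 0.79), and 0 of 11 in the others (median 0.51). Eno1, an enolase, was at 81.8 and 288 CPM in the members.

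Mitotic genes were lower in the cirrhosis members, with 17 of 22 at least 2-fold lower (median -1.27), and 3 of the 5 rule genes were too. Among the 8 and 13 barcodes that passed the limits on other cell types, some of which still held such transcripts, 2 of 28 mitotic genes were at least 2-fold higher and 2 lower, with a median of 0.09. Over all 4179 genes of that comparison 465 (11.1%) were at least 2-fold higher and 494 (11.8%) lower. Of the capillary genes there, 8 of 11 were at least 2-fold higher (median 1.83), and 9 of 15 immediate-early genes were at least 2-fold lower (median -1.65). Hepatocyte genes were 9 of 9 higher in all cirrhosis members (median 4.0). The part of hepatocyte transcripts in the lower mitotic level was not tested.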

How the data were processed

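Each library was deposited as a 10x matrix of UMI counts per gene row (31057 rows) and barcode. Per the submitters' processing notes the authors used Cell Ranger and mm10; versions and settings: not given in the sources used here. The deposited counts were used unnormalized, and 0 columns were left unmapped. Barcodes failed below 500 UMIs, below 300 genes or at 20% mitochondrial UMIs or more, which removed 474 control and 665 cirrhosis barcodes. The libraries held 45767322 and 77339928 UMIs. Doublets were not removed in the results as given; an alternative left out the highest scores against simulated doublets.

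UMIs were summed per library, lineage and cycling class and divided by the summed total to give CPM. Shares have Clopper-Pearson intervals and ratios exact conditional intervals, all at 95%. With 1 library per group no test between groups was made and no paired fit exists. Called genes passed 2-fold, at a mean of 20 CPM between barcode classes or 50 CPM between libraries. Named genes were up to 4 with the largest ratio, 2 with the smallest and 4 with the highest CPM of each list, the 10 highest and 10 lowest of all genes, cyclins, Cdk1, CDK inhibitors, markers and reporters. Pcna in cirrhosis and the genes given for single barcodes of T, B and biliary members were chosen after their values were seen. The members, lists and rules were chosen with earlier results of these data known. The gene ratios and their intervals were tested on simulated pooled counts for cirrhosis endothelial barcodes, which hold no spread between barcodes. The other steps were not tested on simulated data. Python 3.11.15, NumPy 2.4.6, SciPy 1.17.1, scanpy 1.11.5 and matplotlib 3.10.9 were used. Promoter sequences are from RefSeq on GRCm38.p6.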

Additional observations from a re-analysis of the deposited data

Results flagged for a closer look

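The ratio of cycling shares in T cells, cirrhosis over control, was 0.69, below 1, while those of endothelial barcodes and macrophages were 3.26 and 6.89. The difference between the lineages was not tested, and the T cell ratio rests on 3 and 5 cycling barcodes.

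Among barcodes that failed the filter, which no comparison used, 14 of 665 in cirrhosis (2.11%, 1.16% to 3.51%) and 2 of 474 in control (0.422%, 0.0511% to 1.52%) met the rule on the 5 genes. All 16 had at least 20% of UMIs from mitochondrial genes.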

How the results depend on the processing

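No paired analysis was possible because each group is 1 library. Shares below are cycling percentages, ratios are log2 of cirrhosis over control, and gene counts are those past 2-fold. A minimum of 3 rule UMIs gave 3.22% of all, 1.67% of endothelial and 12.5% of macrophage barcodes in cirrhosis. A minimum of 8 gave 1.25%, 0.730% and 4.46%, with 784 (control) and 270 lower endothelial genes and 204 higher macrophage genes. Thinning to 5000 UMIs gave 1.19%, 0.552% and 5.66%, with ratios of 1.30 for all and 0.86 for endothelial barcodes. Thinning to 2000 gave 0.343% of all control barcodes, 0.741%, 0.295% and 3.48% in cirrhosis, 0% of control macrophages, and ratios of 1.11 and 0.25. At 2000 total UMIs cirrhosis macrophages stood at 13%. Without barcodes of several lineages the cirrhosis shares were 1.82%, 0.806% and 7.99%, with 664 lower endothelial genes in cirrhosis, 357 higher and 311 lower macrophage genes, and 394 higher and 580 lower genes between libraries. Without hepatocyte-rich barcodes the endothelial share was 0.832%, with 207 lower genes between libraries. Without all other types the shares were 1.45% and 0.321% and the endothelial ratio turned to -0.31, with 1163 higher and 787 lower endothelial genes in cirrhosis, 449 and 351 in macrophages, and 465 and 494 between libraries. With Mki67 or Top2a required the shares were 2.06% of all and 8.23% of macrophages, and with 4 UMIs per 10000 the endothelial share was 0.842%. The B cell ratio, 0.40 from 3 and 1 barcodes, reversed to -1.18 (minimum of 8, and 4 per 10000), -0.21 and -1.17 (thinned), -0.15 (doublets out), -1.11 (lineage margin) and -0.13 (hepatocyte-rich out).

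With no CPM minimum the higher and lower genes were 1976 and 1117 in control endothelial, 3369 and 556 in cirrhosis endothelial, 1125 and 1208 in macrophage barcodes, and 1228 and 1724 between libraries. At 100 CPM they were 128 and 83, 115 and 25, 23 and 31, and 122 and 140. Lower cirrhosis endothelial genes were 70 with median-of-ratios scaling and 76 with others matched on UMIs. With barcodes weighted equally, 188 genes were higher and 278 lower in macrophages and 494 lower between libraries. The alternatives on other cell types, Mki67 or Top2a, 4 UMIs per 10000 and equal weights, and all macrophage gene comparisons, were chosen after seeing the data. Apart from settings whose construction shows it (fewer barcodes, UMIs or genes), the cause was not tested. With 1 library per group, depth and group cannot be told apart.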
